A study of Homo sapiens with 15 samples.

Results

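The genes described here encode 9 proteins that the yolk sac and the fetal liver secrete: AFP, ALB, APOA1, APOA2, APOB, TTR, RBP4, FGB and SERPINA1. They are 9 of the 60605 genes in the table and were chosen by name, on levels already known from these libraries, so their levels and their differences between arms are given as descriptions; model calls on them are printed once, beside those of all genes, and support nothing. The 15 libraries are bulk RNA sequencing of wild-type H1 cells, an established human embryonic stem cell line. Every culture received CHIR99021, a WNT activator, on Day 0 and insulin on Day 1, and the libraries of Days 0, 1 and 2 were shared by all arms. NP-ctrl cells then stayed in their wells (NP, not passaged) without a further inducer. In NP-IWP2 the wells were likewise left undisturbed, and IWP2, which blocks the secretion of WNT ligands, was present from Day 2 to Day 4. Passaged cells were dissociated with EDTA and replated on Day 2 without a WNT inhibitor. By the study's methods replating also brought the ROCK inhibitor Y27632 and a lower cell density, which cannot be told apart from dissociation here. There was 1 library per arm at Days 3, 5, 7 and 10, without biological replicates, and the intervals given hold only the error of counting. Values for the 3 arms are given in the order NP-ctrl, NP-IWP2, passaged.

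The visceral endoderm of the yolk sac, and later the hepatocytes of the fetal liver, release the proteins that carry lipid, retinol, thyroid hormone and fatty acids in embryonic plasma. Both tissues use much the same set of genes, which hepatocyte nuclear factors such as HNF4A, FOXA proteins and GATA factors help to switch on. Alpha-fetoprotein (AFP) is the main plasma protein of the embryo, and albumin (ALB), encoded next to it, takes its place as the liver matures. These genes are therefore read as signs of endoderm in a culture meant to yield heart muscle, but they do not by themselves separate yolk sac from liver.

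Total counts ranged from 13254723 to 20250115 per library, and 26241 to 30269 genes were above 0. Levels are deposited FPKM values, fragments per kilobase of exon scaled by the depth of the library; for a gene with 1 kilobase of exon, 3 counts were worth 0.148 to 0.226 FPKM. The share of mitochondrial counts moved with the arm and the day. It was 4.80%, 4.66% and 1.53% in the 3 arms on Day 3 and 3.72%, 6.02% and 10.3% on Day 10. Its part in the differences below was not tested. In bulk libraries, fewer cells of a type and less RNA per cell cannot be told apart.

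Promoter sequence was available in RefSeq (GRCh38.p14) for 6 of the 9 genes and was not used here for APOA1, APOB and TTR. The windows below are the 140 bases before an annotated start, 5′ to 3′ on the strand of the gene. They set the promoter of ALB, which did not follow the others, beside those of AFP, FGB, SERPINA1 and APOA2. Capitals mark the HNF1 core GTTAAT, the FOXA core TGTTTAC and the TATA box TATAAA, each on either strand.

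AFP, chr4:73436081-73436220, plus strand: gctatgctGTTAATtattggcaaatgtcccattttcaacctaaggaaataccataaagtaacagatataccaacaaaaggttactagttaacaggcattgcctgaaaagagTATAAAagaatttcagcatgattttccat
ALB, chr4:73404147-73404286, plus strand: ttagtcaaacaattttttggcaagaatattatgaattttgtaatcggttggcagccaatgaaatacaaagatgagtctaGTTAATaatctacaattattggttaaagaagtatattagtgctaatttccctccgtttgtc
FGB, chr4:154562871-154563010, plus strand: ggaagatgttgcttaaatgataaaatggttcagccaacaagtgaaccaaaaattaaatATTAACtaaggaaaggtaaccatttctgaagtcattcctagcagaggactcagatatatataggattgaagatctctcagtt
SERPINA1, chr14:94388603-94388742, minus strand: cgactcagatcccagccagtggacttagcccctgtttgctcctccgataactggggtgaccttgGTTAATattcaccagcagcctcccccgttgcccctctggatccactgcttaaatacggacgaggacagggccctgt
APOA2, chr1:161223629-161223768, minus strand: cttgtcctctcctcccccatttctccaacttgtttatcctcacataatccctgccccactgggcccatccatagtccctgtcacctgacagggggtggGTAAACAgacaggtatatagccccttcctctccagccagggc

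The search covered the 250 bases before each of 10 annotated starts of the 6 genes. The HNF1 core GTTAAT was found before 5 of them, belonging to AFP, ALB, FGB (2 starts that share 1 site) and SERPINA1, and before 6.23% of the 35116 starts of all genes. It began 132 bases before the start of AFP, 61 before ALB, 82 before the FGB start shown and 76 before SERPINA1. The FOXA core TGTTTAC was found before APOA2 only among the 10 (2.98% of all starts), and the TATA box before AFP and 2 starts of RBP4 (10.7% of all). The HNF4 core CAAAGTC was found before none of the 10 starts and before 2.91% of all. A match describes letters in a window, not binding.

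AFP, the fetal carrier protein (chr4:73431138-73456174, plus strand), had the highest level of the 9 genes in both static arms on Day 10. It stood at 0.17 FPKM (9 counts) on Day 0, at 0 on Days 1 and 2, and at 0 in every arm on Day 3. In NP-ctrl it was 0.58 FPKM on Day 5, 153 on Day 7 and 2366 on Day 10. In NP-IWP2 the levels on those days were 0.11, 49.7 and 716 FPKM. Passaged cells had 0, 1, 0 and 11 counts on Days 3, 5, 7 and 10, and the 0.23 FPKM of Day 10 was close to the 0.17 of undifferentiated cells. The 2 static arms thus shared the course of AFP and were about 3-fold apart on Days 7 and 10, whereas passaged cells never left the level of the first days. From Day 5 to Day 7 the NP-ctrl level was multiplied by 264 (exact 95% counting interval 184 to 395), and from Day 7 to Day 10 by 15.5 (15.1 to 15.9). With 0.757% of all counts, AFP ranked 6 among all genes by FPKM in NP-ctrl on Day 10 and 18 in NP-IWP2.

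ALB, the main plasma protein after birth (chr4:73397114-73421482, plus strand), ends 9655 bases before AFP begins but did not follow it. Its level was 0.01 to 0.03 FPKM on Days 0 to 2. In NP-ctrl it was 0.22, 0.30, 0.81 and 5.28 FPKM on Days 3, 5, 7 and 10. NP-IWP2 had 0.15, 0.27, 3.71 and 5.24 FPKM, and passaged cells had 0.28, 0.48, 3.19 and 2.78 FPKM. Of the 9 genes, ALB was the one that passaged cells held within 2-fold of both static arms on Day 10. On Day 7 it was higher than in NP-ctrl in both other arms, 4.56-fold in NP-IWP2 (3.20 to 6.66) and 3.92-fold in passaged cells (2.73 to 5.76). On Day 10 the ratio of NP-IWP2 to NP-ctrl was 0.993 (0.834 to 1.18), and that of passaged cells was 0.526 (0.425 to 0.648). These levels were low, and ALB ranked 7839 among all genes in NP-ctrl on Day 10.

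**Figure D1:**
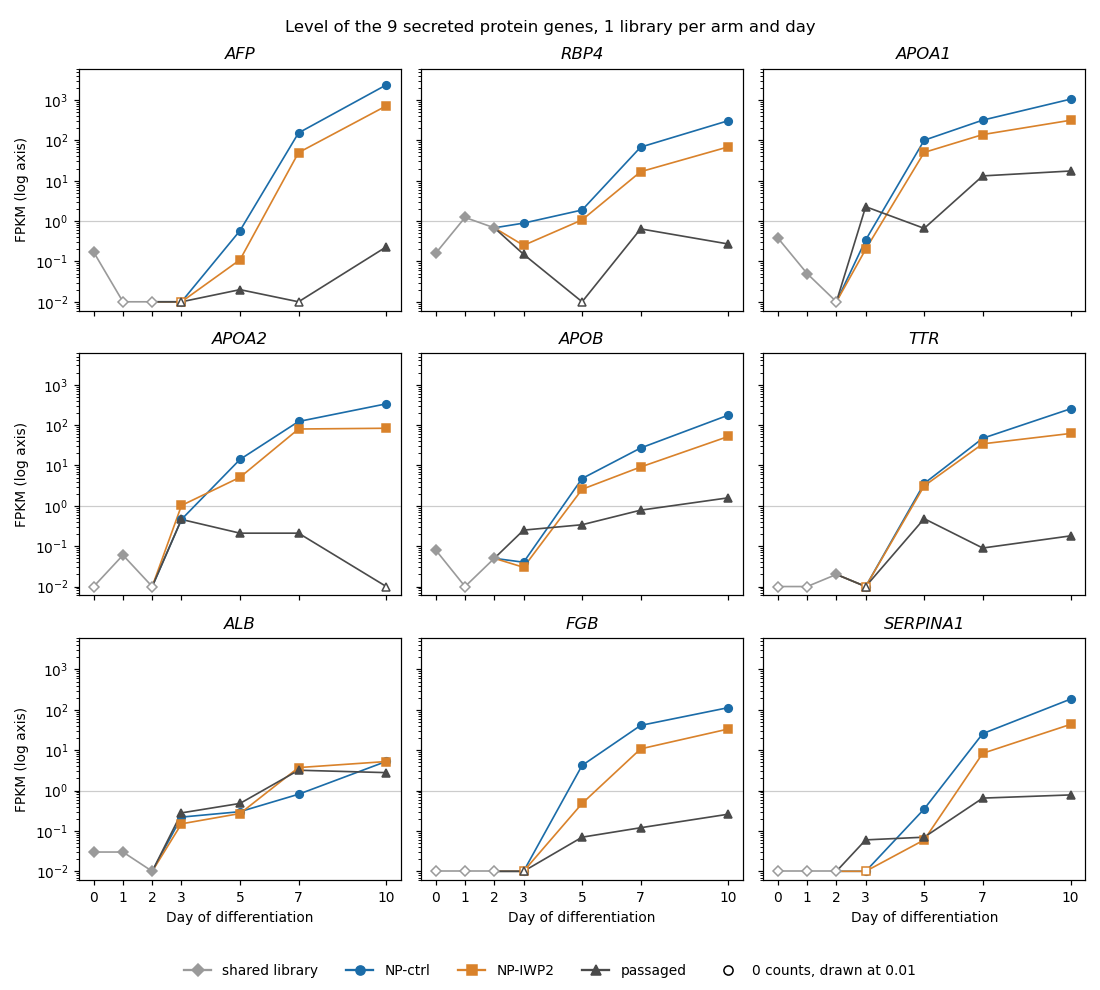
FPKM (log axis) of the 9 genes by day of differentiation, with 1 point per library; grey diamonds are the shared libraries of Days 0 to 2, and open symbols are libraries with 0 counts, drawn at 0.01, where they can cover each other. In 8 panels the static arms climb from Day 5 and the passaged arm stays far below them on Day 10 (AFP 2366, 716 and 0.23 FPKM), whereas the 3 arms of ALB end between 2.78 and 5.28 FPKM.

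The apolipoproteins came next. APOA1, the core protein of high-density lipoprotein (chr11:116835751-116837622, minus strand), was the first gene to reach a high level. It was at 0.38, 0.05 and 0 FPKM on Days 0, 1 and 2. NP-ctrl had 0.34, 101, 317 and 1047 FPKM on Days 3, 5, 7 and 10, and NP-IWP2 had 0.20, 50.2, 139 and 314 FPKM. APOA1 was thus already at 101 FPKM in NP-ctrl on Day 5, when AFP was at 0.58. Passaged cells had 2.27, 0.66, 13.1 and 17.4 FPKM (34, 11, 216 and 290 counts), the highest level of any of the 9 genes in that arm on Days 7 and 10. On Day 3 passaged cells exceeded NP-ctrl 6.73-fold (2.79 to 19.6), from 34 against 6 counts. APOA1 overlaps the antisense gene APOA1-AS, and the strand used in counting was not stated. APOA1-AS had 5 to 20 counts in the 15 libraries, fewer than the passaged APOA1 counts of Days 7 and 10. On Day 3 it had 8 counts in NP-ctrl and 11 in passaged cells, against 6 and 34 of APOA1. In passaged cells on Day 5 it had 12 counts, against 11 of APOA1.

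APOA2, the second protein of high-density lipoprotein (chr1:161222292-161223631, minus strand), had 0, 0.06 and 0 FPKM on Days 0, 1 and 2. Its levels were 0.46, 14.1, 123 and 336 FPKM in NP-ctrl and 1.02, 5.09, 80.0 and 83.5 FPKM in NP-IWP2 on Days 3, 5, 7 and 10. The NP-IWP2 level hardly moved after Day 7, with a ratio of Day 10 to Day 7 of 1.04 (0.964 to 1.13), against 2.74 (2.59 to 2.91) in NP-ctrl. Passaged cells had 6, 3, 3 and 0 counts on the same days. APOB, the structural protein of the lipoproteins that yolk sac, liver and intestine secrete (chr2:21001429-21044073, minus strand), was at or below 0.08 FPKM on Days 0 to 2. It had 0.04, 4.75, 27.1 and 177 FPKM in NP-ctrl and 0.03, 2.57, 9.16 and 52.4 FPKM in NP-IWP2. Passaged cells had 0.25, 0.34, 0.78 and 1.58 FPKM (50, 76, 173 and 356 counts), above the static arms on Day 3 and below them from Day 5. On Day 3 passaged APOB exceeded that of NP-ctrl 5.94-fold (2.98 to 13.1). APOA1 and APOB were thus the genes that passaged cells kept above 100 counts on Day 10 beside ALB.

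TTR and RBP4 travel together in plasma, where transthyretin binds the retinol carrier RBP4 and also carries thyroid hormone. TTR (chr18:31557009-31598833, plus strand) was at 0, 0 and 0.02 FPKM on Days 0, 1 and 2 and at 0 in every arm on Day 3. On Days 5, 7 and 10 it was 3.58, 47.1 and 253 FPKM in NP-ctrl and 3.12, 34.3 and 62.0 FPKM in NP-IWP2. The static arms were close on Day 5, where the ratio of NP-IWP2 to NP-ctrl was 0.872 (0.660 to 1.15), and apart on Day 10, where it was 0.245 (0.233 to 0.257). Passaged cells had 16, 3 and 6 counts on those days. RBP4 (chr10:93591687-93601744, minus strand) had the highest level of the 9 genes in the shared libraries of Days 1 and 2, with 0.16, 1.23 and 0.68 FPKM on Days 0, 1 and 2. It then had 0.89, 1.88, 67.9 and 308 FPKM in NP-ctrl and 0.25, 1.07, 16.7 and 69.0 FPKM in NP-IWP2. Passaged cells had 0.15, 0, 0.64 and 0.27 FPKM, all below the shared library of Day 1.

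FGB, the beta chain of fibrinogen (chr4:154563011-154572807, plus strand), had 0 counts in the shared libraries and in every arm on Day 3. Its levels on Days 5, 7 and 10 were 4.20, 41.1 and 113 FPKM in NP-ctrl, 0.48, 10.8 and 33.6 FPKM in NP-IWP2, and 0.07, 0.12 and 0.26 FPKM in passaged cells. FGB had the lowest ratio of NP-IWP2 to NP-ctrl of the 9 genes on Day 5, at 0.115 (0.0765 to 0.168). SERPINA1, the alpha-1 antitrypsin that protects tissue from neutrophil elastase (chr14:94376747-94390693, minus strand), also had 0 counts on Days 0 to 2. It was late, with 0.01, 0.35, 25.7 and 184 FPKM in NP-ctrl and 0, 0.06, 8.38 and 43.6 FPKM in NP-IWP2 on Days 3, 5, 7 and 10. Passaged cells had 4, 5, 48 and 58 counts, and 0.78 FPKM was the highest level.

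Onset was taken as the first day from which a gene stayed at 1 FPKM or more. In NP-ctrl, 6 of the 9 genes (RBP4, APOA1, APOA2, APOB, TTR and FGB) began on Day 5, AFP and SERPINA1 on Day 7, and ALB on Day 10. In NP-IWP2, APOA2 passed on Day 3 (1.02 FPKM, 13 counts), RBP4, APOA1, APOB and TTR on Day 5, and AFP, ALB, FGB and SERPINA1 on Day 7. In passaged cells, APOA1 and ALB passed on Day 7 and APOB on Day 10, and the other 6 genes never did. These days move with the threshold: with more than 3 counts as the mark, 9 genes in NP-ctrl and 5 in passaged cells had begun by Day 5, and with 5 FPKM, 2 and 0 had. APOA1 and APOA2 were the first to 5 FPKM in both static arms, on Day 5.

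The comparison of NP-IWP2 with NP-ctrl asks what WNT inhibition does to these genes in cells that stay in place. In the Day 10 libraries 8 of the 9 genes were at least 2-fold lower in NP-IWP2, as were 12.1% of all genes tested, and the median log2 ratio of the 9 was -1.76 (range -2.16 to -0.01), against -0.03 over all genes. The folds lay close together, from 3.31 for AFP (3.27 to 3.35) to 4.46 for RBP4 (4.22 to 4.71), with ALB as the exception. On Day 7 they were more spread: 6 of the 9 were at least 2-fold lower (11.0% of all genes tested), the median log2 ratio was -1.56, and the ratios ran from 0.246 for RBP4 to 0.652 for APOA2, 0.728 for TTR and 4.56 for ALB. The median log2 ratio was -1.002 on Day 5 and -0.51 on Day 3, the last over the 5 genes with more than 3 counts in either library.

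Dissociation and replating without a WNT inhibitor were compared with NP-ctrl next. On Day 10 the level of AFP was 10475-fold lower in passaged cells (5854 to 20985), that of TTR 1396-fold (641 to 3805) and that of RBP4 1137-fold (522 to 3100). APOA2 had 0 counts against 4279 and was at least 1612-fold lower, with the floor set at 3 counts per library. The other folds were smaller: 444 for FGB (277 to 763), 237 for SERPINA1 (183 to 312), 112 for APOB (101 to 125), 60.2 for APOA1 (53.6 to 67.9) and 1.90 for ALB (1.54 to 2.35). The genes thus spanned over 12 units on the log2 scale, from -13.35 for AFP to -0.93 for ALB, with a median of -8.80 against -0.18 over all genes; after rescaling to TPM these medians were -9.08 and -0.47. At least 2-fold lower were 8 of the 9 genes on both Day 10 (22.1% of all genes tested) and Day 7 (17.6%). On Day 7, AFP had 0 counts against 6488, at least 2446-fold lower. The median log2 ratio was -3.80 on Day 5 and 0.51 on Day 3, the last over the 6 genes with more than 3 counts in either library. On Day 3 APOA1 and APOB were more than 2-fold higher in passaged cells. RBP4 was 5.89-fold lower on that day (1.76 to 30.9), from 3 against 21 counts. Against NP-IWP2 the Day 10 median was -7.04, and ALB was again nearest, at 0.530 of the NP-IWP2 level (0.431 to 0.649).

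**Figure D2:**
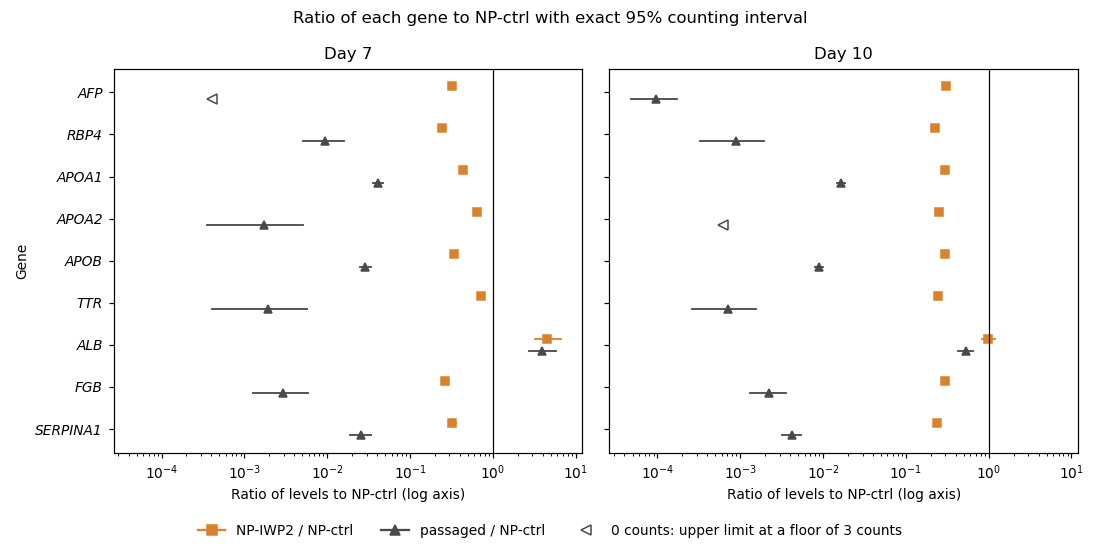
Ratio of the level of each gene in NP-IWP2 (orange squares) and passaged cells (dark triangles) to NP-ctrl on Days 7 and 10, on a log axis, with exact 95% counting intervals; an open arrowhead is the upper limit for a library with 0 counts, at the floor of 3 counts. On Day 10 the orange squares of 8 genes lie between 0.224 and 0.302, whereas the dark triangles run from 9.55e-05 for AFP to 0.526 for ALB.

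Together the 9 genes held 1.41% (Wilson 95% interval 1.40 to 1.41), 0.410% (0.407 to 0.414) and 0.00584% (0.00547 to 0.00624) of all counts in the 3 arms on Day 10. On Day 7 the shares were 0.186%, 0.0723% and 0.00420%, and on Day 3 they were at most 0.000804%. The make-up of the static arms was alike on Day 10: of the summed FPKM of the 9 genes, AFP gave 49.4% (NP-ctrl) and 51.9% (NP-IWP2), and APOA1 gave 21.9% and 22.8%. From the top the order was AFP, APOA1, APOA2, RBP4 and TTR in both arms, and SERPINA1 and APOB changed places below them, with levels within 2-fold of each other. On Day 7 APOA1 led in both, with 39.5% in each, and AFP gave 19.1% and 14.1%. In passaged cells APOA1 gave 74.1% on Day 10 and ALB 11.8%. With 1 library an arm, no spread was available for these orders beyond counting error.

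Ratios of paired genes within a library do not depend on its depth. AFP to ALB, the fetal against the later carrier, was 1.94 (1.02 to 3.83) on Day 5, 188 (136 to 267) on Day 7 and 448 (395 to 510) on Day 10 in NP-ctrl. In NP-IWP2 it was 0.412 (0.115 to 1.23), 13.4 (11.6 to 15.5) and 136 (121 to 154), and in passaged cells on Day 10 it was 0.0813 (0.0397 to 0.1499). Passaged cells were the arm with more ALB than AFP on Day 10. APOA1 to APOA2 lay between 1.74 and 9.88 in the static arms, with no order of the arms that held on all days: 7.13 and 9.88 on Day 5, 2.58 and 1.74 on Day 7, 3.11 and 3.77 on Day 10 for NP-ctrl and NP-IWP2. TTR to RBP4 was above 1 on Day 5 in both static arms, at 1.90 (1.33 to 2.76) and 2.92 (1.82 to 4.88). It was then 0.694 and 2.05 on Day 7, and 0.822 (0.795 to 0.851) and 0.898 (0.841 to 0.959) on Day 10.

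In NP-ctrl, neighbouring partner genes reached their levels later than the members they lie beside, although FGA, like FGB, passed 1 FPKM on Day 5. FGB, FGA and FGG encode the 3 chains of fibrinogen and lie within chr4:154563011-154612967. FGB was ahead: its ratio to FGG, the gamma chain, was 19.8 (11.1 to 38.7) on Day 5, 13.4 (11.4 to 16.0) on Day 7 and 1.28 (1.23 to 1.33) on Day 10 in NP-ctrl. In NP-IWP2 it was 39.2 (24.0 to 69.0) on Day 7 and 1.96 (1.82 to 2.11) on Day 10. The ratio of FGB to FGA, the alpha chain, was 3.18 (2.48 to 4.13), 1.87 (1.74 to 2.01) and 0.783 (0.758 to 0.809) in NP-ctrl. On chromosome 11, APOC3, an inhibitor of triglyceride clearance, and APOA4 lie beside APOA1. APOC3 was at 0.22, 3.28 and 175 FPKM and APOA4 at 0, 12.2 and 525 FPKM in NP-ctrl on Days 5, 7 and 10. APOA1 therefore exceeded APOC3 96.6-fold (69.9 to 137) on Day 7 and 5.996-fold (5.72 to 6.29) on Day 10. In NP-IWP2 these were 127 (77.1 to 228) and 12.04 (10.8 to 13.4). APOB went the other way against MTTP, the transfer protein that loads lipid onto it: the ratio was 0.758 (0.682 to 0.844) on Day 5, 2.95 (2.71 to 3.21) on Day 7 and 12.9 (12.1 to 13.8) on Day 10 in NP-ctrl.

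**Figure D3:**
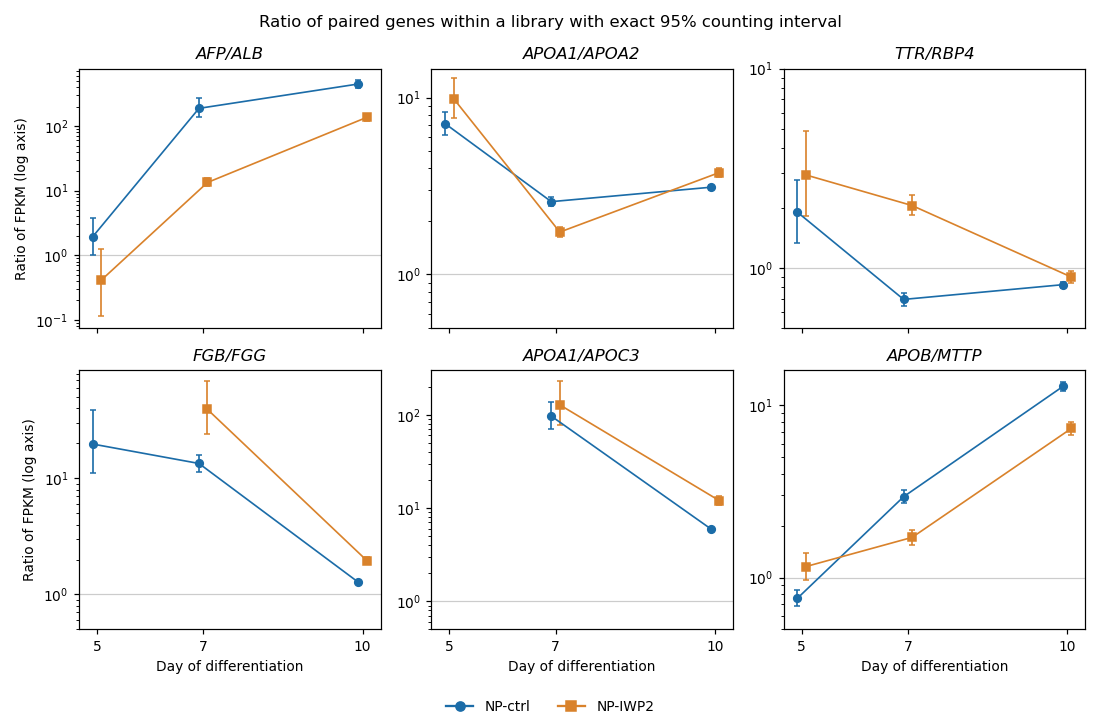
Ratio of the FPKM of paired genes within 1 library (log axis) on Days 5, 7 and 10 in NP-ctrl (blue circles) and NP-IWP2 (orange squares), with exact 95% counting intervals; points where either gene had 3 counts or fewer are left out. AFP/ALB and APOB/MTTP climb with the days (AFP/ALB to 448 and 136 on Day 10), and FGB/FGG and APOA1/APOC3 come down towards 1.

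Over Days 3 to 10 the arms were fitted with edgeR's quasi-likelihood test, with day as a block and p-values adjusted by Benjamini-Hochberg over the 21206 genes at 1 FPKM or more in any library. The p-values measure only how the arms' difference varied over the days of 1 series of cultures. In passaged cells against NP-ctrl, 6 of the 9 genes were called lower and 0 higher, where 2.76% of all genes were called lower and 1.64% higher. Against NP-IWP2, 4 were called lower and 0 higher (0.915% and 0.415% of all genes). Leaving out Day 7 gave 3 and 0 calls, leaving out Day 5 or Day 10 gave 4 and 3, and leaving out Day 3 gave 8 and 8. The genes were chosen with these differences known, and 6 of the 9 passed the filter only through libraries outside the passaged arm, so nothing is read from these counts. The fitted log2 differences between passaged cells and NP-ctrl ran from -13.01 ± 0.85 (SE) for AFP and -8.17 ± 1.26 for APOA2 to -3.57 ± 1.31 for APOB and 0.48 ± 0.47 for ALB. The 3 without a call were APOA1, APOB and ALB, and the first 2 of these were higher in passaged cells on Day 3. The test gives no SE, so each SE here and below is the size of the difference over the square root of its F statistic. Such an SE is only approximate. Between NP-IWP2 and NP-ctrl edgeR called 0 of the 9 genes and 0.00943% of all genes in each direction; 4 of the 9 were at an unadjusted p under 0.05, and DESeq2 called 0. A fit of these 2 arms alone called 6 of the 9 lower and a fit without the filter 4. The fitted log2 differences ran from -2.12 ± 0.41 for FGB to 0.39 ± 0.47 for ALB.

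Other plasma protein genes were followed in 3 lists: 11 genes of apolipoproteins and lipoprotein assembly, 17 coagulation factors and inhibitors, and 17 other carriers and inhibitors. Of these 45 genes, 32 reached the level for testing, 21 of them only in libraries outside the passaged arm, so that for those a lower passaged level was in part given by the filter. The lists were also chosen with earlier results known, and their counts are no independent evidence of a direction. In passaged cells against NP-ctrl, 16 of the 32 were called lower and 0 higher. The shares over all genes, which hold for every list below against NP-ctrl, were 2.76% lower and 1.64% higher. Lower and higher here compare arms and do not mean a change over days. The median log2 difference of the 32 was -3.03, against 0.00 over all genes. Without Day 7 the count was 5, without Day 10 it was 6, and in a fit of the 2 arms alone it was 4.

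Among lipoprotein genes 6 of 8 were called lower. The count was 2 without Day 7 or with the 2 arms alone and 3 without Day 10. MTTP was lower by 6.44 on the log2 scale (SE 0.51, edgeR adjusted p = 0.0002) and APOC3 by 8.76 (SE 0.80, adjusted p = 0.00088). MTTP, APOC3 and APOA4 passed the filter only outside the passaged arm, so their lower passaged level was in part given by it. MTTP had 6.27, 9.17 and 13.7 FPKM in NP-ctrl on Days 5, 7 and 10 and 0.08 to 0.10 FPKM in passaged cells. APOM, APOC1, APOA4 and PLTP were lower as well, with edgeR adjusted p from 0.0058 to 0.033. PLTP and APOC1 were on in every library from Day 0, and PLTP had 10.1 FPKM in passaged cells on Day 10 against 68.8 in NP-ctrl. APOE, the most abundant gene of the list, was on throughout, with 201 FPKM on Day 0 and 754, 292 and 369 FPKM in the 3 arms on Day 10.

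Of the coagulation genes 8 of 13 were called lower: F10, FGA, F7, FGG, PLG, F2, VTN and SERPINF2. The count was 5 without Day 5, 2 without Day 7, 3 without Day 10 and 1 with the 2 arms alone. F10, the factor that cuts prothrombin, was lower by 2.21 (SE 0.24, edgeR adjusted p = 0.00088) and FGA by 8.07 (SE 1.09, adjusted p = 0.0030). Of the 8 called genes, all but F10 and VTN had passed the filter only outside the passaged arm. VTN, vitronectin, was the most abundant, with 192, 61.7 and 4.69 FPKM in the 3 arms on Day 10. PROS1, protein S, was at 26.9, 30.8 and 27.4 FPKM in the same libraries. Among the other carriers 2 of 11 were called lower, AHSG and FETUB, both of the fetuin family. Both had passed the filter only outside the passaged arm. The count was 5 without Day 3, 1 without Day 5, without Day 7 or with the 2 arms alone, and 0 without Day 10. AHSG, fetuin-A, had 15.6 FPKM on Day 7 and 454 on Day 10 in NP-ctrl, 2.01 and 95.4 FPKM in NP-IWP2, and 3 counts on each day in passaged cells (log2 difference -10.23, SE 1.24, adjusted p = 0.0015). AMBP and HPX followed in abundance, at 25.6 and 13.5 FPKM in NP-ctrl on Day 10. TF, transferrin, a large product of the adult liver, reached 1.14 FPKM at most.

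Against NP-IWP2, passaged cells had 0.915% of all genes called lower and 0.415% higher. Of the 32 genes 7 were called lower and 0 higher: MTTP, F10, APOC3, AHSG, F7, FGA and APOM. All of these but F10 and APOM had passed the filter only outside the passaged arm. The count was 13 without Day 3, 3 without Day 5, 1 without Day 7 and 3 without Day 10. Between NP-IWP2 and NP-ctrl edgeR called 0 of the 32, with 14 at an unadjusted p under 0.05, and DESeq2 called 0. A fit of these 2 arms alone called 7 lower. In the Day 10 libraries 26 of the 32 were at least 2-fold lower in NP-IWP2 than in NP-ctrl, with a median log2 ratio of -1.82, where 12.1% of all genes tested were that much lower and the median over all genes was -0.03.

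Of 16 endoderm and hepatic transcription factors 14 were tested. In passaged cells against NP-ctrl 4 were called lower, HNF4A, CEBPA and ONECUT1 among them, and 0 higher (2.76% and 1.64% of all genes). The count was 2 without Day 5 or without Day 7, 1 with the 2 arms alone and 7 lower with 1 higher without Day 3. Of the 14, 6 passed the filter only outside the passaged arm, HNF4A and ONECUT1 among them. HNF4A, which drives much of the hepatic and yolk sac programme, had 3.88, 4.22 and 3.20 FPKM in NP-ctrl on Days 5, 7 and 10 and 1.71, 1.39 and 0.97 FPKM in NP-IWP2. Passaged cells had 3, 0, 2 and 3 counts on Days 3 to 10 (log2 difference -7.48, SE 0.85, edgeR adjusted p = 0.0011). In passaged cells HNF4A was also lower than in NP-IWP2 (edgeR adjusted p = 0.0065). In that comparison 2 of the 14 were called lower (0.915% of all genes), and 0 without Day 5 or without Day 7. CEBPA, a factor of hepatocyte maturation, was lower than in NP-ctrl by 3.11 (SE 0.67, edgeR adjusted p = 0.027). It had 16.9, 4.25 and 0.15 FPKM in the 3 arms on Day 10. PROX1, of the same list, went the other way, with 4.35, 11.3 and 19.9 FPKM in those libraries. Its fitted log2 difference between passaged cells and NP-ctrl was 1.15 (SE 0.40), without a call. GATA4 and GATA6, which endoderm and heart share, were at 43.5 to 102 FPKM in all 3 arms on Day 10. SOX17, an early endoderm factor, had 16.7, 20.5 and 10.4 FPKM in the 3 arms on Day 3 and 1.14, 1.91 and 0.14 FPKM on Day 10. FOXA2 had 6.61 FPKM in passaged cells on Day 3, above the 3.33 of NP-ctrl, and 0 counts on Day 10.

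**Figure D4:**
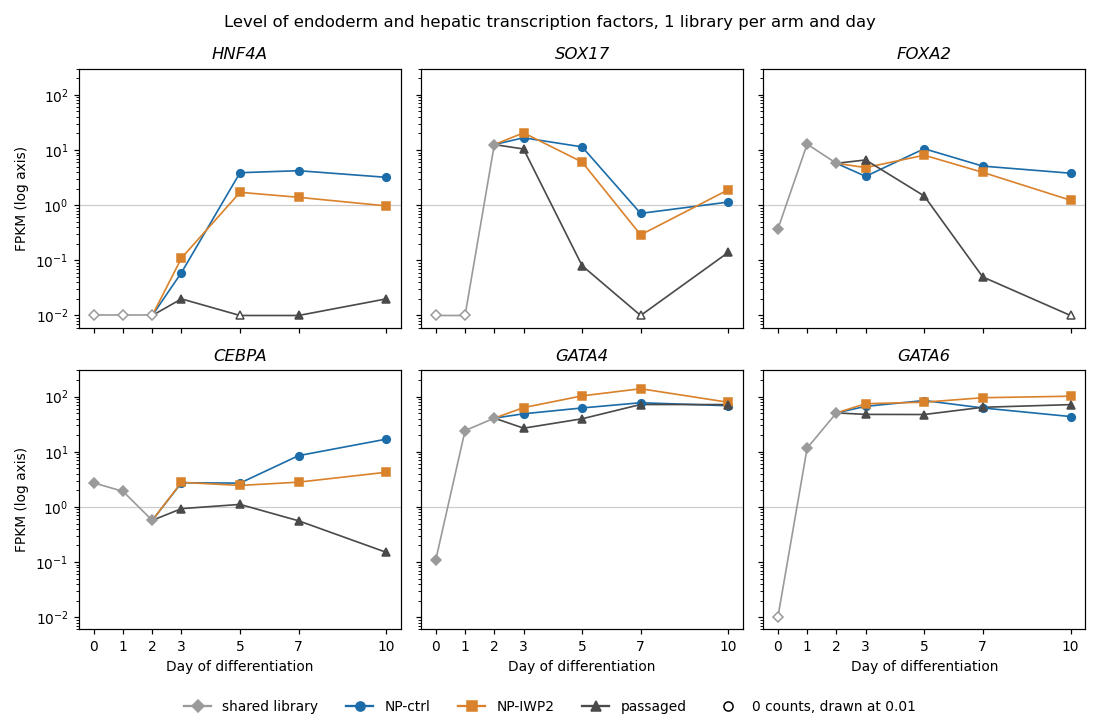
FPKM (log axis) of 6 transcription factors by day of differentiation, with 1 point per library; grey diamonds are the shared libraries, and open symbols are libraries with 0 counts, drawn at 0.01. HNF4A stays at or below 0.02 FPKM in passaged cells and passes 1 FPKM in both static arms on Day 5, whereas GATA4 and GATA6 are above 26 FPKM in every arm from Day 3 on.

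Genes of yolk sac endocytosis and retinol handling were spread over the arms. CUBN, the cubilin receptor, fell in passaged cells against NP-ctrl (log2 difference -2.47, SE 0.48, edgeR adjusted p = 0.018) and the other 7 of the 8 tested were not called. Without Day 7, without Day 10 or with the 2 arms alone 0 of the 8 were called. Without Day 3 the count was 4. LRP2, the megalin partner of cubilin, had 21.0, 9.07 and 4.25 FPKM on Day 10 and 5.25, 2.19 and 13.1 FPKM on Day 3 in the 3 arms. RDH10 and DAB2, among the most abundant, were above 6 FPKM in every arm on Day 10. Of 14 hepatocyte enzymes and receptors 7 were tested. In passaged cells against NP-ctrl 3 were called lower (2.76% of all genes), among them TDO2 and ASGR2. TDO2 and ASGR2 had 2.98 and 3.52 FPKM in NP-ctrl on Day 10. The count of 3 became 1 without Day 5 or Day 7 and 0 without Day 10 or with the 2 arms alone. In passaged cells TDO2 was also lower than in NP-IWP2 (edgeR adjusted p = 0.036), a call lost when Day 5, 7 or 10 was left out. Of the 8 endocytosis genes 3 had passed the filter only outside the passaged arm, CUBN among them. So had 5 of the 7 hepatocyte genes, TDO2 and ASGR2 among them. For these genes a lower passaged level was in part given by the filter. ASGR1 and CPS1 led the hepatocyte list, at 10.2 and 8.39 FPKM in NP-ctrl on Day 10. CYP3A4, CYP3A7, CYP7A1, G6PC1 and TAT, enzymes of the same list, did not pass 0.18 FPKM in any library. ARG1 and SLC10A1, also of that list, had 2.04 and 2.63 FPKM in NP-ctrl on Day 10. Between NP-IWP2 and NP-ctrl edgeR called 0 of the transcription factors, 0 of the endocytosis genes and 0 of the hepatocyte genes, with 1, 2 and 0 at an unadjusted p under 0.05, and DESeq2 called 0 of each.

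The labelled identity of the genes was set beside marker lists with the 9 genes taken out. The other 8 yolk sac or visceral endoderm markers summed to 274, 179 and 81.3 FPKM in the 3 arms on Day 10, and 8, 7 and 3 of them were at 1 FPKM or more. GATA6, which heart also expresses, gave most of the passaged sum, and without it the other 7 summed to 230.0, 77.7 and 9.79 FPKM. Of these sums VTN, which is also in the coagulation list, gave 192, 61.7 and 4.69 FPKM. The other 6 hepatocyte markers summed to 18.9, 7.23 and 2.92 FPKM, with 2, 2 and 1 at 1 FPKM or more. Intestine markers, 8 genes, summed to 9.53, 3.06 and 3.38 FPKM. The 6 cardiomyocyte markers moved the opposite way, with sums of 472, 1442 and 3446 FPKM on Day 10 and 609, 2186 and 2828 FPKM on Day 7. Primitive erythroid markers (5 genes) and neural or squamous markers (4 genes) summed to at most 1.07 FPKM on Day 10. The part of these cell types in the levels of the 9 genes was not tested.

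The 9 profiles were compared over the 15 libraries on log2(FPKM + 1), a scale on which days and arms are shared, so that a correlation is only a description. The 28 pairs without ALB had correlations from 0.825 to 0.991 (median 0.963), and the 8 pairs with ALB from 0.614 to 0.758. APOB (0.990), TTR (0.986) and FGB (0.984) lay closest to the mean profile and ALB (0.768) farthest. The 10 protein-coding genes with profiles most like the mean, with correlations from 0.973 to 0.986, were ALDH1A1, ABO, ARAP2, PLVAP, DAAM2, PLAC1, VTN, FGA, AQP1 and SMLR1. ALDH1A1, a retinaldehyde dehydrogenase, had 16.9, 13.1 and 0.44 FPKM in the 3 arms on Day 10, and the water channel AQP1 had 147, 29.6 and 2.08 FPKM. PLVAP, a protein of vessel walls, was alike in the static arms at 12.2 and 11.9 FPKM. With log2(FPKM + 0.1) 4 of these 10 genes were retained, and with log2(CPM + 1) 6.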

How the data were processed

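RNA was counted in 15 libraries, grouped by arm and day from the sample titles. Per the labels, the authors trimmed reads with Cutadapt (version 1.9.1), aligned them to hg38 with HISAT2 (version 2.0.1) and counted them with HTSeq (version 0.6.1). The deposited counts are whole numbers, and the FPKM values the authors deposited were recomputed from them, exonic length and library total to within 0.005. The kit named is a long-read kit and the tools are for short reads, so values per length carry that doubt. Of the genes, 60463 matched GENCODE release 44 by identifier and 93.8% had identical coordinates.

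Members and lists were chosen with earlier results of these data known. Named beside the members were every list gene with an adjusted p under 0.05, the 3 most abundant genes of each list, neighbours, and the 10 genes most like the mean profile. PROS1, TF, FOXA2, PROX1, LRP2, ARG1, SLC10A1 and the enzymes below 1 FPKM fall outside this rule and were named after their values were seen. Some genes that the rule names are not reported here. Ratios of single libraries carry exact intervals from the Clopper-Pearson share, both taken from the counts as they are. Counts of 3 or less were set to 3 for log2 ratios, their medians and 2-fold counts, and for at-least folds. The arms were fitted with edgeR (version 4.0.16, R version 4.3.3) on counts of genes with FPKM of at least 1 in any library, using TMM, and the script was tested on simulated data. DESeq2 (version 1.42.0), its size factors, no filter, 2 arms only, leaving out each day, TPM, TMM library sizes, other pseudocounts and other thresholds of onset were alternatives.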

Additional observations from a re-analysis of the deposited data

How the results depend on the processing

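The number of genes called in passaged cells against NP-ctrl, 933, was 2150 with DESeq2, 2571 without the filter, 109 with the 2 arms alone and between 133 (without Day 7) and 2373 (without Day 3) when a day was left out. For the 45 plasma protein genes, 16 became 26 without the filter, 4 with the 2 arms alone and 5 to 22 when a day was left out. Against NP-IWP2, 282 became 892, 1368 and 163 under the same settings and 13 (without Day 7) to 675 (without Day 3); the plasma protein count of 7 became 17 without the filter and 1 to 13. For NP-IWP2 against NP-ctrl, 4 became 59 with DESeq2, 372 without the filter, 277 with the 2 arms alone and 0 to 35; the plasma protein count of 0 became 7 without the filter and 7 with the 2 arms alone, and 0 to 0 when a day was left out. More genes enter the fit without the filter, and fewer libraries enter with 2 arms or 3 days; the cause of the other moves was not tested. No list gene called in the 2 comparisons of passaged cells had another direction in any of the 9 settings. On Day 10 the median log2 ratio of the 9 genes moved to -6.70 (passaged against NP-ctrl) and -4.78 (passaged against NP-IWP2) on log2(FPKM + 1), a scale that understates change at low levels; TPM and TMM library sizes gave -9.08 and -8.62 for the former. The transcription factors called in passaged cells against NP-ctrl, 4, were 10 lower and 1 higher with DESeq2 and 12 lower and 1 higher without the filter, and against NP-IWP2, 2 became 7 and 12. Members past the threshold of onset by Day 5 were 2 at 5 FPKM in NP-ctrl, 9 at more than 3 counts and 2 at 5 FPKM in NP-IWP2, and 5 at more than 3 counts in passaged cells. Of the 10 most similar genes 4 and 6 were shared under the other scales. Day was a block in every fit, which pairs the arms by day. At a median of 15269132 counts a library, low levels of short genes rest on few counts.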
